A study of Xenopus laevis with 32 samples.

Results

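Tails amputated in the refractory period were compared at 72 h and at 6 h after the cut, across all genes. The 72 h group held libraries B, C and D and the 6 h group libraries A, B, C and D, which are the libraries of these 2 times that the authors' normalized table keeps, 7 of the 32 of the series. Library 72 h A is not in that table, the sources used here give no reason, and it entered an alternative only. The study sampled Xenopus laevis tails at 0, 0.5, 6 and 72 h after amputation in a regeneration and a refractory period, in 4 biological repeats with the letters A to D each. Every tail was amputated, the groups at 0 h included, and each sample pooled RNA of 20 embryos. The labels name neither a strain nor a genotype. The extraction protocol gives a regenerative stage for every sample, so refractory here means the labelled period, and how old the embryos were cannot be settled. No uncut tail of the later times was analysed here, so a change between 6 h and 72 h includes normal growth of the embryos over that interval.

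A Xenopus tadpole normally regrows an amputated tail, but during a refractory phase of early larval life the cut surface is covered by skin and no new tail forms. Wounding switches on immediate early transcription factors within minutes, and the epidermis that moves over the wound makes collagenases and a laminin on which keratinocytes glide. As a wound settles, these genes usually decline and the tissue underneath lays down fibronectin, collagens and other matrix.

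In the refractory tails, 33 of 92 immediate early genes fell between 6 h and 72 h, while the fibronectin gene fn1.S and the matrix gene tgfbi.L were among those that rose. Of 21458 genes tested, 590 were called lower at 72 h than at 6 h, which is 2.75%, and 246 were called higher, which is 1.15% (edgeR, Benjamini-Hochberg adjusted p under 0.05). The falls were larger than the rises. The median log2 change was -1.03 over the genes called lower and 0.83 over those called higher, against 0.0059 over all genes tested. A fall of at least 2 on the log2 scale was seen in 101 called genes, and a rise of that size in 29. All 4 libraries of 6 h stood above all 3 of 72 h in 546 of the 590 lower genes, and all stood below in 221 of the 246 higher ones. Over all genes tested the same order was seen in 7.02% and 5.57%, and a call makes a gap between the groups likely. With all 32 libraries fitted, which adds 72 h A and 4 libraries of other groups, 86 genes were called higher and 393 lower. In that fit the rises dropped by the larger share. Both directions also depended on single libraries. Without 72 h B, 359 genes were called lower. The higher genes numbered 147 with 72 h C left out and 149 with 72 h D left out.

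**Figure D1:**
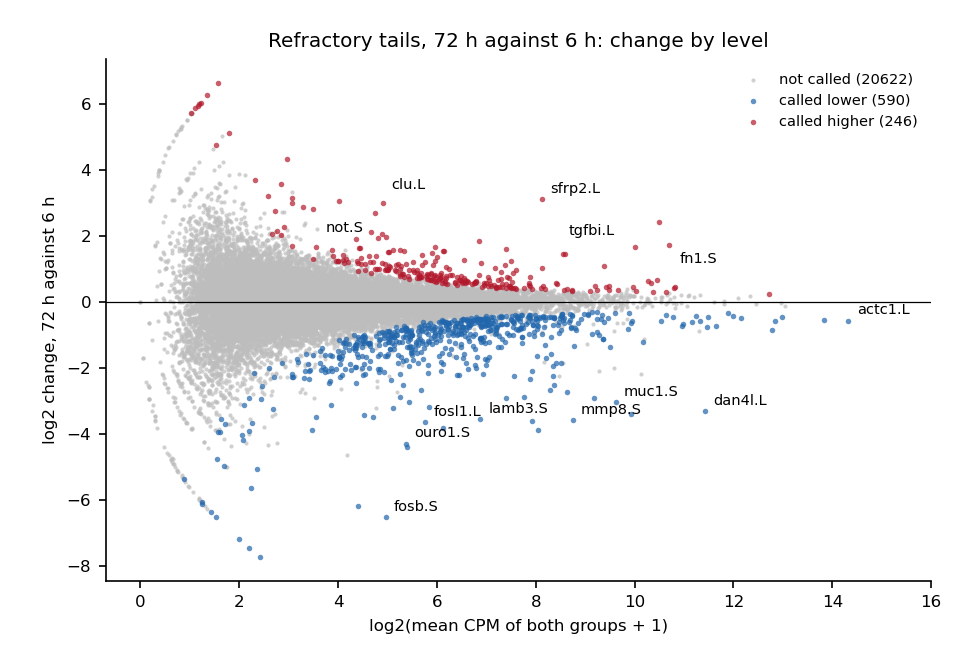
Each point is 1 of 21458 genes in refractory tails, with the level on the horizontal axis as log2 of the mean CPM of both groups plus 1, and the log2 change of 72 h against 6 h on the vertical axis. Blue points are the 590 genes called lower and red points the 246 called higher, and the labelled genes run from -6.54 for fosb.S to 3.10 for sfrp2.L.

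Levels are given as CPM, the count of a gene relative to the library size after TMM scaling (edgeR's cpm), listed in the order A, B, C, D at 6 h and B, C, D at 72 h. Levels of 72 h A were scaled with TMM factors from all 32 libraries. The other levels listed used factors from the 27 libraries fitted. Changes are log2 values of the model with their standard error (SE). Total counts were 2011011 to 3283790 in the 6 h libraries and 2680015 to 3468181 at 72 h. Pearson's r between log2 CPM of pairs of libraries was 0.910 to 0.927 within 6 h, 0.919 to 0.930 within 72 h and 0.887 to 0.912 between the times, while 72 h A reached 0.887 to 0.898 with 72 h B, C and D. Muscle, notochord, spinal cord and epidermal genes, which mark a tail, were detected in every library. The summed level of 36 erythroid genes was 4091 to 10783 CPM at 6 h and 1776 to 2079 CPM at 72 h, with globin genes above 0 in both groups, and 1 member, ank1.L, was called lower, though not by DESeq2 or in the fits of 14, 7 or 32 libraries. Summed levels of 54 retina and lens genes overlapped between 6 h (1667 to 2215 CPM) and 72 h (1624 to 1808 CPM). So did those of 42 liver, pancreas and gut genes (6443 to 8537 and 7021 to 8058 CPM). The part of the erythroid difference in other results was not tested. In RNA of whole tails, fewer cells of a type and less RNA per cell cannot be told apart.

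Immediate early genes fell broadly. Of 92 members measured, 33 fell and 2 rose, against 2.75% lower and 1.15% higher of all genes, and the median log2 change of the list was -0.83. The AP-1 subunit gene fosl1.L stood at 79.7, 110.3, 94.4 and 111 CPM at 6 h and 14.2, 4.77 and 4.96 CPM at 72 h, a log2 change of -3.65 ± 0.37 SE, adjusted p = 5.45e-13. Its homeolog fosl1.S was at 76.9, 81.8, 68 and 87.8 CPM at 6 h and 0, 6.86 and 3.86 CPM at 72 h (log2 change -4.40 ± 0.66 SE, adjusted p = 9.42e-05). No 72 h library of either copy came near the 6 h libraries, yet fosl1.L had not returned to the level of the cut itself. In the 0 h libraries it was at 0, 0, 0 and 0.694 CPM, and 72 h was still above 0 h (log2 change 5.06 ± 0.67 SE, adjusted p = 1.85e-08). Library 72 h A, which was not fitted, was at 1.27 CPM for fosl1.L.

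Other AP-1 genes followed. For fosb.S the values were 44.5, 48.3, 60.7 and 86.4 CPM at 6 h and 0, 0.894 and 0.827 CPM at 72 h (log2 change -6.54 ± 0.84 SE, adjusted p = 8.88e-06). For fosb.L they were 19.6, 46.2, 36.2 and 60.4 CPM at 6 h and 0.709, 6.86 and 3.31 CPM at 72 h (log2 change -3.44 ± 0.57 SE, adjusted p = 2.2e-05). Both fos copies fell as well, fos.L by a log2 change of -2.90 ± 0.45 SE, adjusted p = 0.000321 and fos.S by -3.04 ± 0.54 SE, adjusted p = 0.0014. The dimer partner genes split. Of these, junb.S fell, with 106, 176, 118 and 237 CPM at 6 h and 51.1, 59 and 66.2 CPM at 72 h (log2 change -1.43 ± 0.21 SE, adjusted p = 1.26e-06). In contrast jun.L was not called, with 265, 324, 336 and 261 CPM at 6 h and 232, 264 and 259 CPM at 72 h (log2 change -0.24 ± 0.12 SE, adjusted p = 0.379), and neither was jun.S (log2 change -0.05 ± 0.11 SE, adjusted p = 0.924). The levels of both jun copies overlapped between the times. Of the genes in this paragraph, junb.S and fosb.L were also still higher at 72 h than at 0 h, by log2 changes of 1.65 ± 0.22 SE, adjusted p = 3.92e-07 and 2.58 ± 0.78 SE, adjusted p = 0.0468.

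The stress response factor gene atf3.L was at 79.4, 85.9, 57 and 123 CPM at 6 h and 13.8, 13.7 and 13.2 CPM at 72 h (log2 change -2.66 ± 0.33 SE, adjusted p = 1.07e-09). Its 72 h libraries lay within the range of 0 h (10.6, 12.7, 15.7 and 5.21 CPM). Its homeolog atf3.S was called lower too (log2 change -1.53 ± 0.45 SE, adjusted p = 0.0333), but not without 6 h A, B or D or 72 h C or D (adjusted p up to 0.186) and not with the replicate block. The C/EBP factor genes fell by smaller factors. For cebpd.L the libraries were at 535, 599, 492 and 615 CPM at 6 h and 327, 304 and 339.6 CPM at 72 h (log2 change -0.79 ± 0.11 SE, adjusted p = 3e-08). For cebpb.L they were at 70.1, 197, 104 and 135 CPM at 6 h and 46.8, 56 and 50.7 CPM at 72 h (log2 change -1.30 ± 0.22 SE, adjusted p = 1.17e-05). The phosphatase gene dusp5.L, whose product switches off ERK, was at 259, 470.0, 266 and 530.0 CPM at 6 h and 43.6, 55.4 and 54 CPM at 72 h (log2 change -2.90 ± 0.37 SE, adjusted p = 3.82e-05). It was still above 0 h (log2 change 1.97 ± 0.41 SE, adjusted p = 0.00617). The zinc finger factor genes klf2.S (log2 change -1.86 ± 0.27 SE, adjusted p = 2.51e-07) and egr1.L (log2 change -1.08 ± 0.17 SE, adjusted p = 0.000228) and the mRNA decay factor gene zfp36.S (log2 change -0.80 ± 0.11 SE, adjusted p = 5.13e-08) fell. The homeolog egr3.S had no count in 72 h B, C or D (1.91 CPM in 72 h A, which was not fitted) and 13.2, 3.05, 5.82 and 6.75 CPM at 6 h, at least 24.4-fold lower when 72 h is set to 3 counts over the group. Its call was lost without 72 h B, 72 h C or 72 h D (adjusted p up to 0.118) and with DESeq2.

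The inflammatory list had 40 members, of which 4 fell and none rose, where 2.75% of all genes fell and 1.15% rose. The median log2 change of the list was -0.69. Cyclooxygenase-2, which makes prostaglandins, is encoded by ptgs2. The copy ptgs2.L was at 135, 163, 161 and 176 CPM at 6 h and 26.2, 40.8 and 48 CPM at 72 h (log2 change -2.04 ± 0.21 SE, adjusted p = 1.72e-12). Its homeolog ptgs2.S was at 146, 142, 154 and 165 CPM at 6 h and 55.3, 62 and 63.1 CPM at 72 h (log2 change -1.33 ± 0.18 SE, adjusted p = 9.55e-09). For both, every 6 h library was far above every 72 h library. The chemokine gene cxcl14.L fell as well (38.1, 52.8, 53 and 44.1 CPM at 6 h and 16.7, 17.6 and 17.6 CPM at 72 h; log2 change -1.44 ± 0.29 SE, adjusted p = 0.000345). The interleukin receptor gene il1r1.S was the fourth, with 13.5, 24.9, 31.3 and 10.7 CPM at 6 h and 3.9, 6.26 and 3.58 CPM at 72 h (log2 change -2.12 ± 0.62 SE, adjusted p = 0.0297). Its call was lost without 6 h B, 6 h C, 72 h B, 72 h C or 72 h D (adjusted p up to 0.174). The hormone gene lep.L, at 18.15, 26.9, 21.8 and 27.4 CPM at 6 h and 6.74, 7.45 and 9.92 CPM at 72 h, had a log2 change of -1.54 ± 0.58 SE, adjusted p = 0.139. It had no count at 0 h, and 72 h was higher than 0 h (log2 change 7.63 ± 1.14 SE, adjusted p = 6.68e-07). None of 28 complement and coagulation genes was called by edgeR (2 had an unadjusted p under 0.05) or by DESeq2. The same held for 12 antigen presentation, lymphoid and interferon genes, with 0 at an unadjusted p under 0.05. Over all genes tested, 2921 of 21458 had an unadjusted p under 0.05 in edgeR.

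**Figure D2:**
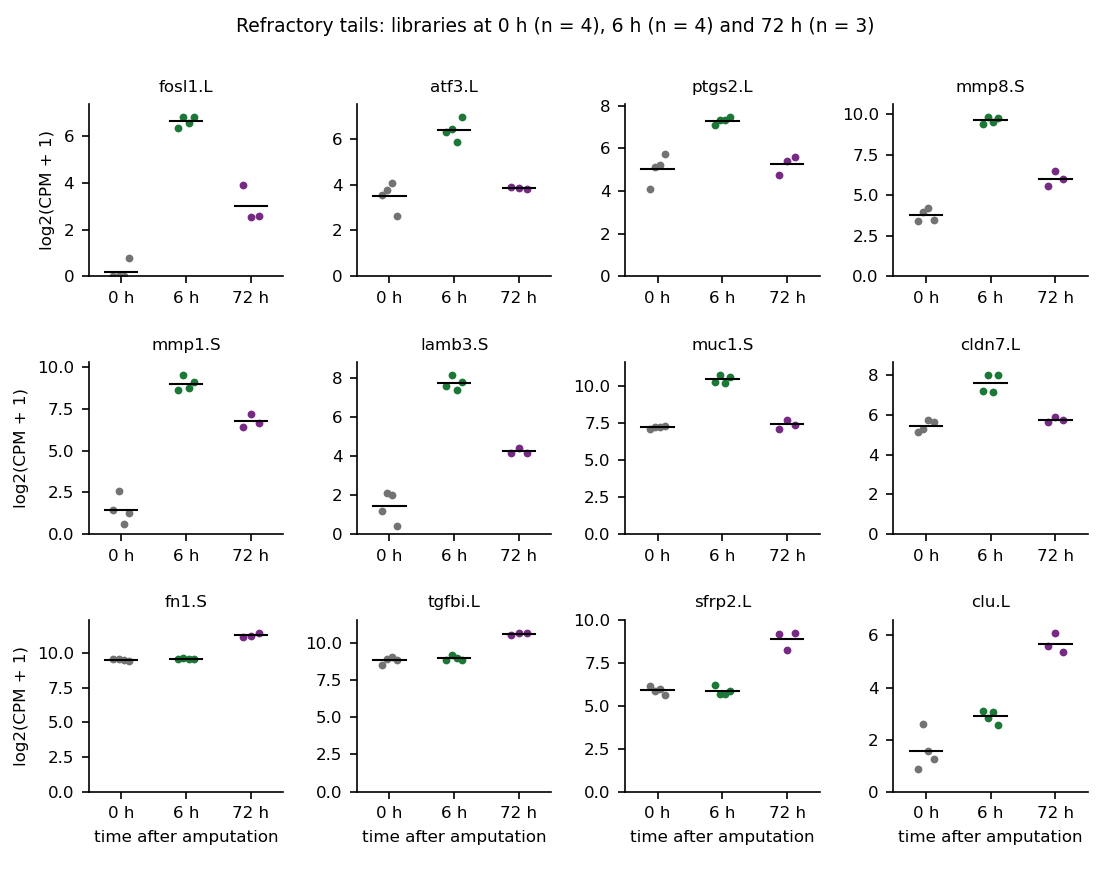
Log2(CPM + 1) of 12 genes in each refractory library at 0 h (n = 4), 6 h (n = 4) and 72 h (n = 3), with a black line at the mean of each group. For fosl1.L, mmp8.S, mmp1.S and lamb3.S the 72 h libraries B, C and D lie below 6 h but above 0 h, while fn1.S, tgfbi.L, sfrp2.L and clu.L have their highest values at 72 h. Library 72 h A is not shown.

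Genes of the collagenases and of the epithelial basement membrane were among the largest falls. Collagenases cut fibrillar collagen. The collagenase gene mmp8.S was at 675, 905, 725 and 861 CPM at 6 h and 46.8, 88.2 and 62.3 CPM at 72 h (log2 change -3.58 ± 0.30 SE, adjusted p = 7.2e-08). A second one, mmp1.S, was at 394, 752, 440.2 and 561 CPM at 6 h and 85.5, 147 and 103 CPM at 72 h (log2 change -2.26 ± 0.41 SE, adjusted p = 0.00164). All 72 h libraries were below all 6 h libraries for both genes. In 72 h B, C and D both still exceeded the 0 h libraries, where mmp8.S was at 9.74, 14.4, 17.6 and 10.1 CPM and mmp1.S at 1.69, 5.01, 0.49 and 1.39 CPM. The log2 changes against 0 h were 2.36 ± 0.32 SE, adjusted p = 7.61e-05 and 5.57 ± 0.58 SE, adjusted p = 2.91e-06. In 72 h A, which was not fitted, mmp8.S was at 9.56 CPM, near the lowest 0 h library, and mmp1.S at 13.4 CPM. With all 32 libraries the 72 h against 6 h call of mmp1.S was lost. Some other genes of the same family were not called. The copy mmp8.L was at 64.8, 191, 77.2 and 80 CPM at 6 h and 33.3, 90 and 62.3 CPM at 72 h (log2 change -0.72 ± 0.50 SE, adjusted p = 0.627). The gelatinase gene mmp9.2.L was at 93.9, 151, 109 and 132 CPM at 6 h and 27.3, 77.5 and 39.1 CPM at 72 h (log2 change -1.33 ± 0.45 SE, adjusted p = 0.127). Its homeolog mmp9.2.S had a log2 change of 0.63 ± 0.31 SE, adjusted p = 0.351 and mmp13.S of 0.89 ± 0.70 SE, adjusted p = 0.678.

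The list of matrix proteases and inhibitors, mmp8.S and mmp1.S included, moved in both directions, with 4 of 59 members lower and 7 higher. Over all genes 2.75% were lower and 1.15% higher. The inhibitor gene serpine2.L, whose product inhibits thrombin and plasminogen activators, rose (11.7, 13.2, 6.44 and 6.04 CPM at 6 h and 39.7, 30.7 and 49.1 CPM at 72 h; log2 change 2.11 ± 0.37 SE, adjusted p = 2.01e-05). The stromelysin gene mmp11.L, a thyroid hormone response gene in Xenopus, rose, with 6.76, 18.3, 9.2 and 10.7 CPM at 6 h and 39, 57.8 and 40.8 CPM at 72 h (log2 change 2.06 ± 0.41 SE, adjusted p = 0.00123). That call was lost with all 32 libraries, and 72 h A, which was not in the main fit, was at 4.46 CPM. Membrane-type mmp14.L (log2 change 0.51 ± 0.12 SE, adjusted p = 0.00379) and the lysosomal protease gene ctsk.L (log2 change 1.09 ± 0.30 SE, adjusted p = 0.0191) rose by less. The call of mmp14.L was lost without 72 h D (adjusted p = 0.0529), and that of ctsk.L without 6 h A, 6 h D, 72 h C or 72 h D (adjusted p up to 0.121). With all 32 libraries neither was called. The count of 7 was 1 with all 32 libraries, 4 without 6 h A, 4 without 6 h C, 3 if 72 h C was left out and 2 if 72 h D was. The count of 4 was 2 without 72 h B.

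Laminin chains that anchor the epidermis and the integrins that bind them fell together with plectin. The list of wound matrix, basement membrane and integrin genes had 53 members, 9 lower and 5 higher, against 2.75% and 1.15% of all genes. For lama3.L the values were 95, 188, 105 and 127 CPM at 6 h and 11, 9.84 and 6.34 CPM at 72 h (log2 change -3.83 ± 0.51 SE, adjusted p = 2.2e-05). For lamb3.S they were 192, 283, 163 and 221 CPM at 6 h and 17, 20.3 and 16.8 CPM at 72 h (log2 change -3.57 ± 0.29 SE, adjusted p = 3.26e-15). In both, the highest 72 h library was below the lowest 6 h library.

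Of the integrin pair of the hemidesmosome, itgb4.L was at 425, 468, 369 and 540.3 CPM at 6 h and 116, 149.7 and 143 CPM at 72 h (log2 change -1.72 ± 0.14 SE, adjusted p = 4.63e-15). Its partner itga6.S was at 107, 179, 133 and 177 CPM at 6 h and 44, 37 and 41.6 CPM at 72 h (log2 change -1.86 ± 0.20 SE, adjusted p = 3.45e-12). Both fell with a clear gap between the times. Plectin links that pair to keratin filaments, and plec.S was at 499, 652, 540.4 and 579 CPM at 6 h and 126, 167 and 176 CPM at 72 h (log2 change -1.86 ± 0.13 SE, adjusted p = 3.87e-23). The integrin genes itga3.S (log2 change -1.76 ± 0.28 SE, adjusted p = 2.63e-06) and itga2.L (log2 change -2.01 ± 0.45 SE, adjusted p = 0.00172) were lower too, the latter not without 72 h B (adjusted p = 0.065). At 72 h none of itgb4.L, itga6.S, plec.S and itga3.S was called against 0 h, where for instance itgb4.L had a log2 change of -0.06 ± 0.14 SE, adjusted p = 0.928 and plec.S of 0.03 ± 0.12 SE, adjusted p = 0.969. By contrast lamb3.S stayed above 0 h (log2 change 3.18 ± 0.39 SE, adjusted p = 9.08e-09). In 72 h A, which was not fitted, it was at 4.46 CPM, against 0.347 to 3.34 CPM at 0 h.

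Surface and junction genes of the epidermis fell, while a few keratin genes rose. Of 79 epidermal, keratin and junction genes 20 fell and 4 rose, against 2.75% and 1.15% of all genes, with a median log2 change of -0.35. The claudin genes, whose products seal tight junctions, dropped in both homeologs. For cldn7.L the libraries were at 147, 258, 142 and 255 CPM at 6 h and 48.6, 58.7 and 51.8 CPM at 72 h (log2 change -1.91 ± 0.18 SE, adjusted p = 2.91e-13), and cldn7.S fell too (log2 change -1.65 ± 0.23 SE, adjusted p = 4.81e-08). Of the second claudin, cldn4.L was at 344, 456, 304 and 548 CPM at 6 h and 138, 173 and 189 CPM at 72 h (log2 change -1.30 ± 0.15 SE, adjusted p = 4.96e-09). The copy cldn4.S was at 511, 814, 505 and 678 CPM at 6 h and 231, 229 and 281 CPM at 72 h (log2 change -1.34 ± 0.22 SE, adjusted p = 0.000474). The adhesion gene epcam.S was at 162, 256, 196 and 284 CPM at 6 h and 75.5, 78.1 and 105 CPM at 72 h (log2 change -1.38 ± 0.16 SE, adjusted p = 6.24e-10), and epcam.L fell too (log2 change -1.92 ± 0.23 SE, adjusted p = 8.85e-08). No 72 h library of these 6 genes reached a 6 h library. The desmosome genes pkp3.L (log2 change -1.16 ± 0.21 SE, adjusted p = 3.45e-05) and jup.L (log2 change -0.82 ± 0.14 SE, adjusted p = 1.9e-05) also fell. So did the E-cadherin gene cdh1.S (log2 change -0.96 ± 0.13 SE, adjusted p = 3.79e-07) and tgm1.L (log2 change -1.56 ± 0.30 SE, adjusted p = 0.000168), a transglutaminase that crosslinks the cell envelope.

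A simple-epithelium keratin gene went the other way. For krt19.S the values were 17.4, 26.9, 36.8 and 26.3 CPM at 6 h and 90.1, 35.2 and 61.7 CPM at 72 h (log2 change 1.20 ± 0.26 SE, adjusted p = 0.00126), and the times overlapped. Its call was lost without 72 h B (adjusted p = 0.0977). The list's count of 20 lower was 13 with all 32 libraries and 13 without 72 h B. Its 4 higher became 1 in both of these fits and 2 without 72 h D.

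Further genes, chosen after their values were seen, fell by more than the claudin genes above. The transmembrane mucin gene muc1.S was at 1217, 1706, 1162 and 1519 CPM at 6 h and 137, 208 and 165 CPM at 72 h (log2 change -3.04 ± 0.15 SE, adjusted p = 5.71e-21). At 0 h it had been at 137, 145, 149 and 158 CPM. Syndecan-1, a heparan sulfate proteoglycan, is encoded by sdc1.L, which was at 599, 795, 648 and 726 CPM at 6 h and 86.5, 114 and 111 CPM at 72 h (log2 change -2.73 ± 0.19 SE, adjusted p = 1.78e-12). The LIM domain gene lmcd1.S was at 87.5, 141, 80.9 and 97.4 CPM at 6 h and 6.74, 16.1 and 10.2 CPM at 72 h (log2 change -3.19 ± 0.37 SE, adjusted p = 4.96e-09). The genes trim29.S (log2 change -2.34 ± 0.15 SE, adjusted p = 5.14e-22) and clic3.S (log2 change -2.11 ± 0.14 SE, adjusted p = 1.86e-23) had the same shape. For all 5 the 72 h values did not differ from 0 h beyond the threshold, and each 72 h library was below each 6 h library.

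Genes of larval skin, many of them named for their repression by thyroid hormone in tadpoles, formed a further group that fell. Of 20 larval skin and goblet cell genes 7 fell and none rose, where 2.75% of all genes fell and 1.15% rose. The tail antigen gene ouro1.S, known as ouroboros in Xenopus larval skin, was at 29.9, 137, 70.8 and 69 CPM at 6 h and 5.67, 2.68 and 3.31 CPM at 72 h (log2 change -4.30 ± 0.63 SE, adjusted p = 0.000162). It was also below its 0 h libraries of 56.3, 105, 121 and 164 CPM (log2 change -4.86 ± 0.63 SE, adjusted p = 4.74e-05). The gene thdl18.S was at 348, 462, 500.3 and 675 CPM at 6 h and 39.4, 22.4 and 39.7 CPM at 72 h (log2 change -3.88 ± 0.60 SE, adjusted p = 0.000331). For thdl20.S the values were 362, 448, 748 and 694 CPM at 6 h and 71.6, 118 and 103 CPM at 72 h (log2 change -2.53 ± 0.45 SE, adjusted p = 0.0014). The spread within 6 h was wide in both, but no 6 h value was as low as a 72 h value. The gene thdl17.L fell in the same way, with 198, 249, 351 and 382 CPM at 6 h and 30.9, 48.3 and 36.4 CPM at 72 h (log2 change -2.93 ± 0.57 SE, adjusted p = 0.00422). So did dan4l.L, which is not on the list of 20. It was at 4717, 3547, 6679 and 5042 CPM at 6 h and 399.7, 711 and 388 CPM at 72 h (log2 change -3.32 ± 0.53 SE, adjusted p = 0.000505). The gene lypd2.L fell by a smaller factor (log2 change -0.95 ± 0.15 SE, adjusted p = 8.74e-07).

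**Figure D3:**
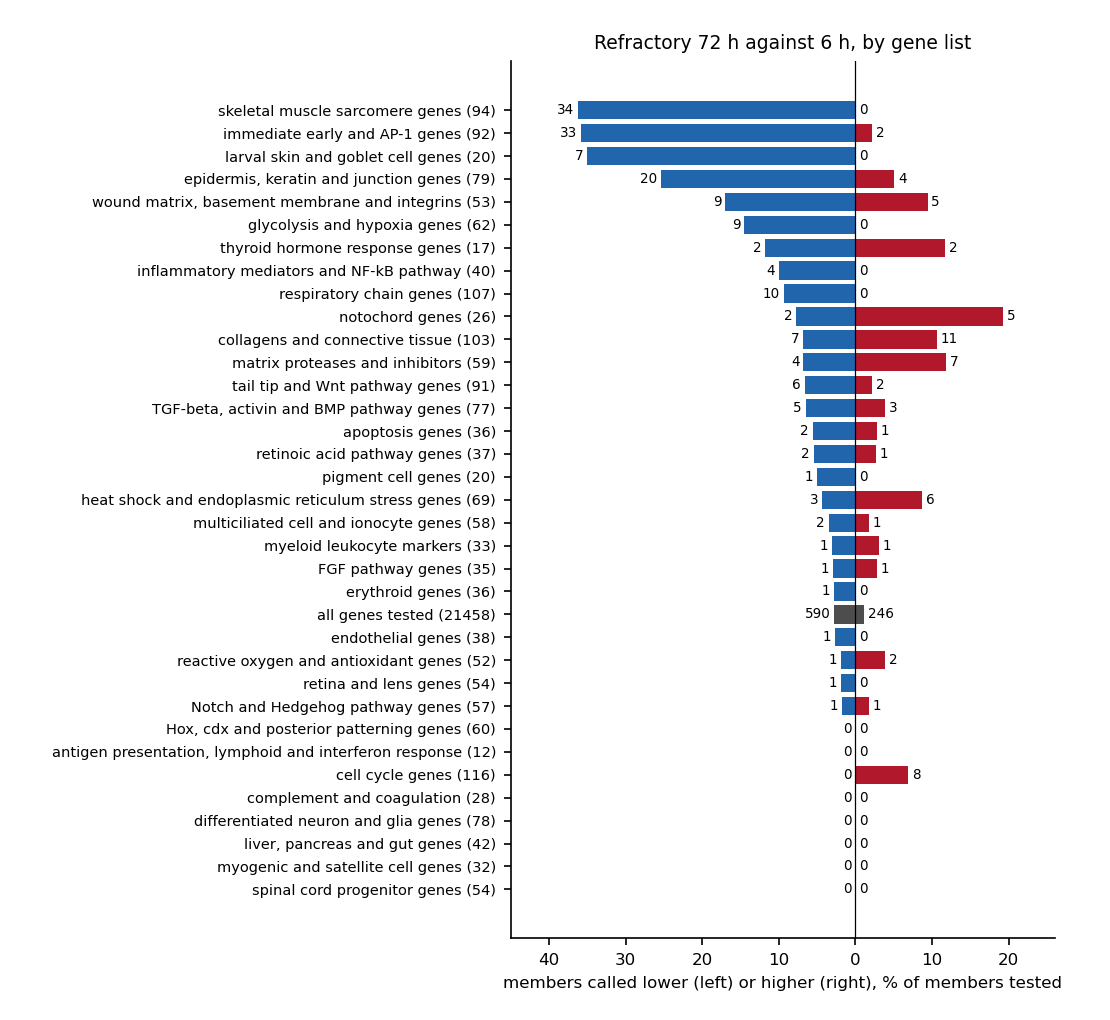
Share of the members tested of each gene list that were called lower (blue, left) or higher (red, right) at refractory 72 h against 6 h, in percent, with counts beside the bars and list sizes in brackets. Grey bars give all 21458 genes tested, where 590 were lower and 246 higher, and the immediate early and sarcomere lists have 33 and 34 members lower.

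Some matrix genes were among the rises of high level. Fibronectin, encoded by fn1.S, was at 769, 789.6, 750.4 and 759 CPM at 6 h and 2343, 2402 and 2866 CPM at 72 h (log2 change 1.73 ± 0.10 SE, adjusted p = 4.7e-24). The adhesion matrix gene tgfbi.L was at 454, 573, 499 and 468 CPM at 6 h and 1453, 1583 and 1649 CPM at 72 h (log2 change 1.65 ± 0.10 SE, adjusted p = 4.78e-25). Each fitted 72 h library of both genes was above all of 6 h and above all of 0 h (758, 753, 722 and 705 CPM for fn1.S and 368, 483, 527 and 457 CPM for tgfbi.L). In 72 h A, which was not fitted, fn1.S was at 902 CPM. There tgfbi.L was at 498 CPM, within the range of 6 h and of 0 h. Thrombospondin (thbs1.S, log2 change 0.74 ± 0.15 SE, adjusted p = 0.000338) and versican (vcan.L, log2 change 0.74 ± 0.14 SE, adjusted p = 0.000303) genes rose by less. Both lost their calls with all 32 libraries, where the 5 higher members of the wound matrix list became 2.

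Collagen and connective tissue genes had 103 members, with 7 lower and 11 higher, against 2.75% and 1.15% of all genes. Their median log2 change was 0.018, and the median of the wound matrix list was -0.032. The fibrillar collagen gene col5a2.L rose, with 36.7, 72.2, 58.5 and 35.5 CPM at 6 h and 83, 98.7 and 116 CPM at 72 h (log2 change 0.98 ± 0.18 SE, adjusted p = 8.58e-05). The prolyl hydroxylase subunit gene p4ha1.L was at 36.7, 39.6, 29.4 and 23.8 CPM at 6 h and 71.3, 67.1 and 51 CPM at 72 h (log2 change 0.97 ± 0.20 SE, adjusted p = 0.000667). The crosslinking enzyme gene lox.S rose too (log2 change 1.13 ± 0.25 SE, adjusted p = 0.00118). Cartilage-type and notochord-sheath collagen genes fell: col9a3.L by a log2 change of -0.61 ± 0.11 SE, adjusted p = 2.29e-05 and col2a1.S by -0.62 ± 0.10 SE, adjusted p = 0.000126. The keratocan gene kera.S was at 13.2, 15.8, 16.6 and 13.5 CPM at 6 h and 5.32, 2.38 and 1.38 CPM at 72 h (log2 change -2.31 ± 0.47 SE, adjusted p = 0.000392). The 11 higher members were 2 with all 32 libraries, 7 without 6 h A and 5 without 72 h C. The 7 lower were 16 with the replicate letter as a block, 11 without a filter on low counts and 4 without 72 h C. With all 32 libraries col5a2.L and lox.S were not called.

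Some genes of secreted proteins rose, while others such as cxcl14.L fell. The Wnt modulator gene sfrp2.L was among the largest rises, with 74.4, 49.8, 50.3 and 58.3 CPM at 6 h and 581, 308 and 616 CPM at 72 h (log2 change 3.10 ± 0.20 SE, adjusted p = 2.94e-13). The other copy, sfrp2.S, was at 19.9, 23.4, 18.09 and 14.9 CPM at 6 h and 41.8, 51.6 and 73.9 CPM at 72 h (log2 change 1.56 ± 0.30 SE, adjusted p = 0.000223). The clusterin gene clu.L, a secreted chaperone, was at 7.47, 6.1, 7.36 and 4.98 CPM at 6 h and 46.8, 68 and 40 CPM at 72 h (log2 change 2.98 ± 0.42 SE, adjusted p = 8.47e-08). No library of 6 h came close to the fitted 72 h libraries of these 3 genes. In 72 h A, which was not fitted, sfrp2.L was at 109 CPM and clu.L at 27.4 CPM. Further rises were chosen after their values were seen. The angiopoietin-like gene angptl2.L was at 212, 214, 219 and 168 CPM at 6 h and 493, 714 and 443 CPM at 72 h (log2 change 1.44 ± 0.13 SE, adjusted p = 2.52e-14), and angptl2.S rose too (log2 change 1.12 ± 0.14 SE, adjusted p = 1.34e-09). The growth factor gene mdk.L for midkine was at 1079, 1031, 1035 and 1201 CPM at 6 h and 1689, 1826 and 1637 CPM at 72 h (log2 change 0.66 ± 0.08 SE, adjusted p = 4.6e-09), and the protease gene adamts7.L rose by 1.40 ± 0.21 SE, adjusted p = 2.64e-07. Both angptl2 copies kept their calls in every omission and alternative run. A gene with an identifier only, LOC121393057, was at 415, 558, 443 and 410.2 CPM at 6 h and 2191, 2196 and 2861 CPM at 72 h (log2 change 2.41 ± 0.15 SE, adjusted p = 2.22e-11).

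Tail tip and signalling genes gave small counts, to be read against 2.75% lower and 1.15% higher of all genes. Of 91 tail tip and Wnt pathway genes 6 were lower and 2 higher. The ectodermal factor gene sp8.L was at 79.7, 142, 136 and 103 CPM at 6 h and 53.9, 41.1 and 48.8 CPM at 72 h (log2 change -1.26 ± 0.18 SE, adjusted p = 2.42e-07). Its copy sp8.S was called lower (log2 change -0.88 ± 0.27 SE, adjusted p = 0.0452), and this call was lost on leaving out any library except 6 h A (adjusted p up to 0.217) and in the fits of the 14 refractory, the 7 compared and all 32 libraries. The homeobox genes msx1.L (log2 change -0.78 ± 0.16 SE, adjusted p = 0.000297) and msx1.S (log2 change -0.72 ± 0.12 SE, adjusted p = 1.17e-05) fell, and so did dlx5.S (log2 change -0.71 ± 0.14 SE, adjusted p = 0.000121). With all 32 libraries msx1.S was not called. The Wnt effector gene lef1.L stood at 279, 279, 265 and 293 CPM at 6 h and 211, 254 and 184 CPM at 72 h, which did not pass the threshold (log2 change -0.37 ± 0.12 SE, adjusted p = 0.0665). At 72 h it was higher than at 0 h (log2 change 0.82 ± 0.12 SE, adjusted p = 4.04e-07). In the FGF list of 35 members 1 fell, fgfbp1.S for an FGF carrier protein, with 50.5, 43.7, 66.8 and 58.7 CPM at 6 h and 8.87, 14 and 8.54 CPM at 72 h (log2 change -2.39 ± 0.33 SE, adjusted p = 4.48e-08). The 1 that rose was etv1.S (log2 change 0.45 ± 0.13 SE, adjusted p = 0.0248), but not without 6 h B, 6 h D, 72 h B or 72 h C (adjusted p up to 0.124).

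The TGF-beta, activin and BMP list had 77 members, 5 lower and 3 higher, against 2.75% and 1.15% of all genes. Both copies of pmepa1, a target and inhibitor of TGF-beta signalling, fell. Their values were 165, 237, 142 and 194 CPM at 6 h and 61.3, 94.5 and 78 CPM at 72 h for pmepa1.L (log2 change -1.24 ± 0.19 SE, adjusted p = 8.14e-07). For pmepa1.S they were 128, 161, 103 and 124 CPM at 6 h and 35.5, 50.4 and 62.8 CPM at 72 h (log2 change -1.37 ± 0.21 SE, adjusted p = 1.57e-06). They remained above 0 h by log2 changes of 1.41 ± 0.20 SE, adjusted p = 7.79e-08 and 1.22 ± 0.22 SE, adjusted p = 6.76e-05. The activin gene inhba.L, at 7.12, 25.9, 12.6 and 16 CPM at 6 h and 0.709, 5.96 and 5.51 CPM at 72 h, was not called (log2 change -1.88 ± 0.65 SE, adjusted p = 0.088). The 5 lower members were 3 in a fit of the 14 refractory libraries and without 6 h B, 72 h B or 72 h C. Without 6 h D, 2 were lower. In the retinoic acid list the receptor gene rarg.S rose (log2 change 1.14 ± 0.24 SE, adjusted p = 0.000738) and the retinoic acid degrading enzyme gene cyp26b1.L fell (log2 change -1.23 ± 0.28 SE, adjusted p = 0.00204), among 2 lower and 1 higher of 37. None of 60 Hox, cdx and posterior patterning genes was called by edgeR (8 had an unadjusted p under 0.05) or by DESeq2. Over all genes tested, 2921 of 21458 had an unadjusted p under 0.05.

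Skeletal muscle genes fell together by moderate amounts. Of 94 sarcomere genes 34 fell and none rose, against 2.75% and 1.15% of all genes, with a median log2 change of -0.64. Their summed level was 79008 to 99891 CPM at 6 h, 53684 to 61185 CPM at 72 h and 75572 CPM in the library 72 h A, which was not fitted. The Z-disc gene myoz2.L was at 249.8, 220.0, 297 and 309.6 CPM at 6 h and 166, 149 and 152 CPM at 72 h (log2 change -0.79 ± 0.13 SE, adjusted p = 5.26e-06). The myosin-binding gene mybpc3.L was at 142, 131, 229 and 189 CPM at 6 h and 94, 94.5 and 97 CPM at 72 h (log2 change -0.86 ± 0.15 SE, adjusted p = 5.59e-05). For the actin-binding repeat gene xirp1.L the values were 69, 76.7, 90.7 and 194 CPM at 6 h and 27.7, 33.7 and 25.9 CPM at 72 h (log2 change -1.89 ± 0.34 SE, adjusted p = 0.000813). The highest 72 h library was under the lowest 6 h library in each. The calcineurin-binding gene myoz1.L had no count in any 72 h library and 2.14, 10.7, 8.28 and 13.9 CPM at 6 h, at least 28-fold lower with 72 h set to 3 counts over the group. None of 32 myogenic and satellite cell genes was called by edgeR (4 had an unadjusted p under 0.05, against 2921 of all 21458 genes) or by DESeq2. The 34 lower members were 15 in the 14 refractory libraries, 13 with all 32, 19 without 6 h D, 12 without 72 h B and 11 without 72 h C.

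Some genes of energy metabolism also fell. Of 62 glycolysis and hypoxia genes 9 fell and 53 were not called, where 2.75% of all genes fell. The glucose transporter gene slc2a1.L was at 199, 206, 222 and 245 CPM at 6 h and 99.6, 87.6 and 114 CPM at 72 h (log2 change -1.12 ± 0.16 SE, adjusted p = 3.32e-07). Also lower were pdk4.L (log2 change -0.97 ± 0.16 SE, adjusted p = 9.85e-06), whose product holds back pyruvate oxidation, and the aldolase gene aldoa.L (log2 change -0.45 ± 0.09 SE, adjusted p = 0.00151). Of 107 respiratory chain genes 10 fell, such as sdhb.S (log2 change -0.51 ± 0.11 SE, adjusted p = 0.00181), and neither list had a member that rose. The 9 became 5 with all 32 libraries and 5 without library 72 h B alone. The 10 became 2 with all 32 libraries, 6 in the 14 refractory libraries, and 18 with the replicate letter as a block. They were 5 without 6 h B, 6 h C, 6 h D or 72 h C, and 4 if 72 h B was omitted. With all 32 libraries aldoa.L was not called. The part of the lower sarcomere sum in these falls was not tested.

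Notochord genes split. Of 26 members 5 rose and 2 fell, where 1.15% of all genes rose and 2.75% fell. The homeobox factor gene not.L was at 0, 1.02, 0 and 2.84 CPM at 6 h and 6.38, 17.6 and 10.2 CPM at 72 h (log2 change 3.55 ± 0.70 SE, adjusted p = 0.000386). For not.S the values were 6.76, 3.05, 7.05 and 10.7 CPM at 6 h and 29.1, 76.3 and 29.8 CPM at 72 h (log2 change 2.67 ± 0.65 SE, adjusted p = 0.0212). The matrix gene emilin3.S rose as well, with 1.07, 4.07, 7.66 and 0 CPM at 6 h and 25.2, 41.1 and 16 CPM at 72 h (log2 change 3.06 ± 0.61 SE, adjusted p = 0.00231). Its homeolog emilin3.L rose (log2 change 1.50 ± 0.31 SE, adjusted p = 0.000416), while col2a1.L fell (log2 change -0.46 ± 0.10 SE, adjusted p = 0.00181) except with all 32 libraries. The groups did not overlap in any of the 4 that rose, but not.S lost its call without 6 h A, 6 h B, 6 h C or 72 h C (adjusted p up to 0.16) and with the block. The count of 5 was 3 in the 14 refractory libraries, 1 with all 32 libraries, and 3 with the block. It was also 3 without 6 h A, 6 h C or 72 h C. With all 32 libraries not.S and both emilin3 copies were not called, and in the 14 refractory libraries not.L was not.

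A few cell cycle genes rose. Of 116 cell cycle genes 8 rose and none fell, where 1.15% of all genes rose and 2.75% fell. The median log2 change of the list was 0.33. The 8 included the cell cycle inhibitor gene cdkn2c.L (log2 change 3.19 ± 0.95 SE, adjusted p = 0.0342). Summed levels were 2654 to 2941 CPM at 6 h and 3448 to 3471 CPM at 72 h. At 0 h they were 2997 to 3567 CPM, a range that holds the fitted 72 h sums. Against 0 h, 0 members were called higher at 72 h and 1 was called lower. The topoisomerase gene top2a.L was at 150.2, 137, 163 and 129 CPM at 6 h and 221, 188 and 201 CPM at 72 h (log2 change 0.49 ± 0.12 SE, adjusted p = 0.00848). The spindle gene tpx2.S was at 75.8, 45.7, 61.3 and 88.9 CPM at 6 h and 90.1, 117 and 112 CPM at 72 h (log2 change 0.64 ± 0.16 SE, adjusted p = 0.00627). For the replication clamp gene pcna.L the values were 60.8, 74.2, 97.5 and 80.7 CPM at 6 h and 134, 100.2 and 122 CPM at 72 h (log2 change 0.60 ± 0.16 SE, adjusted p = 0.0117). Values at 72 h were above all of 6 h in these 3 genes. Each lost its call in an omission, top2a.L without 6 h D or 72 h B, tpx2.S without 6 h B, 72 h C or 72 h D, and pcna.L without 6 h A, 72 h B or 72 h D (adjusted p up to 0.0819, 0.0742 and 0.119). The 8 became 5 with all 32 libraries, in the 7 libraries alone and without 72 h C. With all 32 libraries pcna.L was not among them. The 8 became 3 without 6 h B, 6 h D, 72 h B or 72 h D.

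Myeloid markers gave few calls, where 2.75% of all genes were lower and 1.15% higher. Of 33 myeloid markers 1 fell, cebpa.L, and 1 rose, c1qb.L. The median log2 change of the list was 0.57. Its summed levels overlapped (673 to 821 CPM at 6 h and 660 to 711 CPM at 72 h). The fall of cebpa.L was not called without 6 h A, 6 h D, 72 h C or 72 h D (adjusted p up to 0.12). Nor was that fall called with all 32 libraries. The complement gene c1qb.L was at 0.356, 3.56, 3.07 and 3.2 CPM at 6 h and 18.8, 17 and 18.2 CPM at 72 h (log2 change 2.81 ± 0.81 SE, adjusted p = 0.0243). This rise was not called without 6 h A, 6 h D, 72 h B, 72 h C or 72 h D (adjusted p up to 0.101) or with all 32 libraries. Other macrophage and lysosomal genes were chosen after their values were seen. For the lysosomal membrane glycoprotein gene gpnmb.L the libraries were at 8.9, 11.7, 12.6 and 11.7 CPM at 6 h and 42.2, 62.3 and 24 CPM at 72 h (log2 change 1.93 ± 0.35 SE, adjusted p = 4.4e-05). For vsig4.L, a complement receptor of tissue macrophages in mammals, they were at 13.2, 11.7, 13.8 and 11 CPM at 6 h and 34.4, 74.5 and 36.9 CPM at 72 h (log2 change 1.96 ± 0.36 SE, adjusted p = 4.05e-05). For the legumain protease gene lgmn.L they were at 93.2, 144, 92.3 and 102 CPM at 6 h and 205, 323 and 230.4 CPM at 72 h (log2 change 1.24 ± 0.17 SE, adjusted p = 2.21e-07). In these 3, each 72 h library exceeded each 6 h library and no omission removed the call.

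Stress genes split. Of 69 heat shock and endoplasmic reticulum stress genes 3 fell and 6 rose, against 2.75% lower and 1.15% higher of all genes. The cochaperone gene bag3.L was at 116, 182, 162 and 181 CPM at 6 h and 81.6, 65.3 and 78.8 CPM at 72 h (log2 change -1.09 ± 0.17 SE, adjusted p = 7.72e-07), and the stress factor gene atf4.L fell too (log2 change -0.58 ± 0.09 SE, adjusted p = 1.66e-06). In the reactive oxygen and antioxidant list of 52 genes 1 fell and 2 rose, and both rises lost their call without 72 h C. The 1 that fell was the autophagy receptor gene sqstm1.L, with 195, 223, 214 and 294 CPM at 6 h and 122, 104 and 69.5 CPM at 72 h (log2 change -1.24 ± 0.19 SE, adjusted p = 6.14e-06). Genes of folding enzymes of the endoplasmic reticulum rose, with pdia3.L at 45.5, 66.1, 60.7 and 50.8 CPM at 6 h and 97.9, 91.2 and 101 CPM at 72 h (log2 change 0.80 ± 0.18 SE, adjusted p = 0.00159) and calr.S by 0.30 ± 0.08 SE, adjusted p = 0.0109. The 6 higher members were 1 with all 32 libraries and without 6 h D. They were 2 without 72 h C and 3 without 6 h A or 72 h D. The call of pdia3.L was lost with all 32 libraries and that of calr.S without 6 h D or 72 h C (adjusted p up to 0.0733). In edgeR no member was called among 54 spinal cord progenitor genes (4 at an unadjusted p under 0.05, 0 called by DESeq2), 78 neuron and glia genes (11, and 1 called by DESeq2) and 42 liver, pancreas and gut genes (0 and 0). Of all 21458 genes tested, 2921 were at an unadjusted p under 0.05. There were at most 2 calls in each direction among 38 endothelial, 20 pigment cell, 58 multiciliated cell and ionocyte, 57 Notch and Hedgehog, 52 reactive oxygen, 36 apoptosis, 17 thyroid hormone response and 54 retina and lens genes.

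Wound genes were also defined in other libraries and followed in refractory tails. In the regeneration period 233 genes were called higher at 6 h than at 0 h, which is 1.09% of all genes tested. None of these libraries belongs to the refractory 6 h or 72 h group. Both calls came from 1 fit of 27 libraries, with a shared filter, scaling and estimate of the spread. Without refractory 72 h D, 254 genes were on this list. In refractory tails 175 of the 233 were also higher at 6 h than at 0 h, where 3.35% of all genes were called higher. From 6 h to 72 h, 120 of the 233 fell, which is 51.5%, 14 rose, which is 6.01%, and 99 were not called. Of all genes tested, 2.75% were called lower over this interval and 1.15% higher. The median log2 change was -0.72, and 196 of the 233 had a change below 0, 84.1% against 49.5% of all genes. A change of -1 or lower was seen in 86 of them, and the range ran from -6.54 for fosb.S to 3.13.

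Of the 120 that fell, 29 were still called higher at 72 h than at refractory 0 h. At 72 h, 74 of all 233, including genes that rose only after 6 h, were called higher than at refractory 0 h and 4 lower, where 1.62% and 1.86% of all genes were called, and the median log2 change against 0 h was 0.40. Among the 14 that rose from 6 h to 72 h were fn1.S, clu.L and mmp11.L, none of them called between 0 h and 6 h in refractory tails. Others of the 14 were chosen after their values were seen. The serine protease gene htra3.L was at 11.4, 19.3, 17.2 and 20.3 CPM at 6 h and 49.6, 56.6 and 43.8 CPM at 72 h (log2 change 1.56 ± 0.27 SE, adjusted p = 1.42e-05), and the fibulin gene fbln7.L at 16.7, 21.3, 13.8 and 29.9 CPM at 6 h and 54.3, 72.1 and 50.2 CPM at 72 h (log2 change 1.53 ± 0.28 SE, adjusted p = 4.61e-05). For val.L the values were 38.4, 20.3, 33.7 and 31.6 CPM at 6 h and 83.7, 98.1 and 76.1 CPM at 72 h (log2 change 1.46 ± 0.26 SE, adjusted p = 2.39e-05). The keratin gene krt8.1.L was at 109, 143, 129 and 147 CPM at 6 h and 303, 201 and 264 CPM at 72 h (log2 change 0.96 ± 0.16 SE, adjusted p = 1.9e-05). In each of these 4, the 72 h libraries were above all 6 h libraries. With all 32 libraries fbln7.L and krt8.1.L were not called. The share that fell was 37.3% without 72 h B and 44.3% without 6 h B, and with all 32 libraries it was 46.8% (22 of 47 genes).

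**Figure D4:**
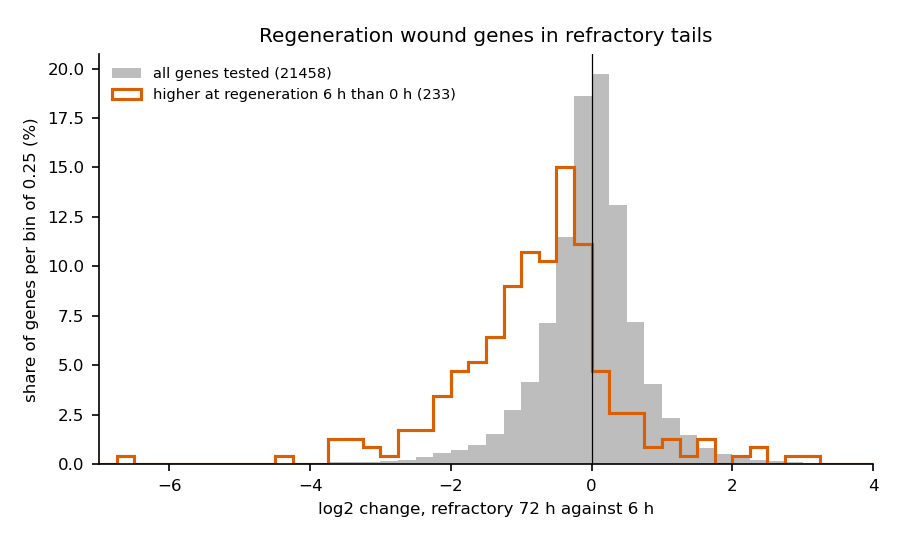
Distribution of the log2 change of refractory 72 h against 6 h for all 21458 genes tested (grey) and for the 233 genes called higher at 6 h than at 0 h in the regeneration period (orange line), as percent of genes per bin of 0.25. The wound genes lie to the left, with a median of -0.72 against 0.0059 for all genes.

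The same interval in the regeneration period was read from 4 libraries at 72 h and 3 at 6 h. Of the 590 genes that fell in refractory tails, 151 also fell in regenerating ones, which is 25.6% of the refractory list, and 9 rose. The 151 were 38.2% of the 395 genes called lower there (1.84% of all genes). Of the 246 that rose, 75 rose in both, 30.5% of the refractory list, and 1 fell. The 75 were 34.9% of the 215 called higher in regeneration (1.002% of all genes). Sarcomere genes were lower in both periods, with 40 of 94 called in regeneration (median log2 change -0.74). In regeneration 12 glycolysis and hypoxia genes were called lower and 1 higher, against 9 lower in refractory tails. Of the respiratory chain genes 12 were lower in regeneration, against 10 in refractory tails. How many members of these lists were lower in both periods was not counted. Both not copies and both emilin3 copies rose in regeneration, by log2 changes of 3.35 ± 0.64 SE, adjusted p = 0.000302 for not.L and 3.29 ± 0.61 SE, adjusted p = 0.00135 for emilin3.S.

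The test of the difference itself, refractory minus regeneration change, called 177 genes, 0.825% of all tested, 124 with a negative and 53 with a positive difference. Among the immediate early genes 6 of 92 had a negative difference and none a positive one. For atf3.L regeneration libraries were at 15.8, 22.5 and 14.6 CPM at 6 h and 16.6, 23.4, 16.3 and 7.94 CPM at 72 h, and the difference was -2.54 ± 0.45 SE, adjusted p = 0.000128. For ptgs2.L they were at 33.7, 44.9 and 49.6 CPM at 6 h and 34.4, 39.1, 48.3 and 37.8 CPM at 72 h (difference -1.95 ± 0.29 SE, adjusted p = 2.99e-06). In both genes the regeneration times overlapped, and the refractory 6 h libraries were above every regeneration library. The homeolog ptgs2.S fell in regeneration as well (log2 change -0.75 ± 0.17 SE, adjusted p = 0.00198). Its difference between the periods was not called (-0.58 ± 0.24 SE, adjusted p = 0.441). The gene fosl1.L fell in both periods (difference 0.48 ± 0.53 SE, adjusted p = 0.939), as did lamb3.S (difference -0.27 ± 0.42 SE, adjusted p = 0.97), with no call on the difference.

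Epidermal genes contributed 9 negative and 2 positive differences out of 79, against 124 negative and 53 positive among all 21458 genes tested. A positive one was that of krt12.4.S (1.73), not called with all 32 libraries. Of the genes given next, cldn7.L and cldn4.L belong to that list. The genes muc1.S, clic3.S, plec.S, itgb4.L and lmcd1.S do not, and all of these but itgb4.L were chosen after their values were seen. The mucin gene muc1.S averaged 131 ± 10.7 CPM at 6 h (SD, n = 3) and 90.8 ± 12.8 CPM at 72 h (SD, n = 4) in regeneration (difference -2.51 ± 0.20 SE, adjusted p = 4.81e-12). The values of cldn7.L were 96.5 ± 10.1 CPM at 6 h (SD, n = 3) and 85.6 ± 15 CPM at 72 h (SD, n = 4) (difference -1.74 ± 0.25 SE, adjusted p = 2.01e-06). Similar calls were made for clic3.S (difference -1.54 ± 0.19 SE, adjusted p = 7.26e-09), plec.S (difference -1.46 ± 0.17 SE, adjusted p = 9.69e-10) and itgb4.L (difference -1.36 ± 0.20 SE, adjusted p = 3.27e-06). They were also made for cldn4.L (difference -1.03 ± 0.21 SE, adjusted p = 0.0029) and lmcd1.S (difference -2.84 ± 0.50 SE, adjusted p = 0.000307). All 7 kept the call of the difference in every omission and alternative run. Of the tail tip list 5 of 91 had a negative and 1 a positive difference. The factor gene sp8.L was at 106, 135 and 129 CPM at 6 h and 108, 164, 91.9 and 116 CPM at 72 h in regeneration, without a gap between the times, and the difference was -1.22 ± 0.25 SE, adjusted p = 0.00191. The FGF carrier gene fgfbp1.S averaged 13.3 ± 2.36 CPM at 6 h (SD, n = 3) and 11.6 ± 1.65 CPM at 72 h (SD, n = 4) (difference -2.19 ± 0.45 SE, adjusted p = 0.00225).

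The larval skin genes thdl18.S and thdl20.S had opposite directions in the periods. Their levels were already apart at 0 h, with means of 155 and 211 CPM in refractory tails and 0.62 and 1.38 CPM in regeneration. At 72 h thdl20.S averaged 97.5 CPM in refractory tails and 108 CPM in regeneration. Against refractory 0 h, thdl18.S was lower (log2 change -2.19 ± 0.57 SE, adjusted p = 0.0362) and thdl20.S was not called (-1.11 ± 0.43 SE, adjusted p = 0.224). The part of the starting levels in the directions was not tested. Over all 21458 genes tested, 124 differences were negative and 53 positive. In the list of 20, regeneration had 2 lower and 2 higher members, and 3 differences were called, all negative. The member lypd2.L fell in both (regeneration log2 change -0.69 ± 0.14 SE, adjusted p = 0.000533). In regeneration thdl18.S was at 11.9, 19.7 and 10.2 CPM at 6 h and 101, 189, 117 and 151 CPM at 72 h (log2 change 3.31 ± 0.62 SE, adjusted p = 0.00335). There thdl20.S was at 2.33, 4.87 and 6.2 CPM at 6 h and 66, 133, 123 and 109 CPM at 72 h (log2 change 4.61 ± 0.60 SE, adjusted p = 7.33e-05). Both rose there and fell in refractory tails, with differences of -7.19 ± 0.86 SE, adjusted p = 7.82e-05 and -7.14 ± 0.75 SE, adjusted p = 1.44e-05. The difference was called for thdl17.L (-6.24 ± 1.09 SE, adjusted p = 0.00603) and dan4l.L (-4.71 ± 0.72 SE, adjusted p = 0.00132) too. Their regeneration changes alone were not called (3.30 ± 0.99 SE, adjusted p = 0.0967 and 1.39 ± 0.49 SE, adjusted p = 0.197). These 4 calls held in every omission and alternative run. In the muscle gene myoz1.L the difference was -8.59 ± 1.91 SE, adjusted p = 0.00527, lost without regeneration 72 h C (adjusted p = 0.0654). The gene snx31.L was not called in refractory tails (log2 change -1.67 ± 0.87 SE, adjusted p = 0.399). Its difference (-4.99 ± 1.28 SE, adjusted p = 0.0284) was lost on leaving out each of refractory 6 h B, refractory 72 h B, refractory 72 h C, regeneration 6 h A, regeneration 6 h D, regeneration 72 h A and regeneration 72 h B (adjusted p up to 0.134).

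Positive differences mark genes that rose more, or fell less, in refractory tails. For mmp11.L the regeneration libraries were at 53.3, 60.6 and 65.1 CPM at 6 h and 40.8, 57.5, 37.7 and 32.7 CPM at 72 h (log2 change -0.50 ± 0.38 SE, adjusted p = 0.749), and the difference was 2.56 ± 0.56 SE, adjusted p = 0.0114. For sfrp2.L they were at 90.9, 78.5 and 80.9 CPM at 6 h and 158, 145, 193 and 177 CPM at 72 h (difference 2.09 ± 0.27 SE, adjusted p = 1.46e-05). For fn1.S they were at 997, 1134 and 1094 CPM at 6 h and 2083, 2148, 1667 and 1361 CPM at 72 h (difference 0.97 ± 0.14 SE, adjusted p = 1.1e-06). In sfrp2.L and fn1.S both periods rose, the refractory one by more, and these 3 differences were lost with all 32 libraries only. Other genes with a positive difference fell in regeneration, namely aqp3.S, adss1.S and odf3.L, none of them called in refractory tails. Their regeneration log2 changes were -2.15 ± 0.36 SE, adjusted p = 1.54e-05, -2.79 ± 0.43 SE, adjusted p = 1.26e-06 and -1.22 ± 0.34 SE, adjusted p = 0.025. The differences were 2.50 ± 0.51 SE, adjusted p = 0.00199, 2.54 ± 0.58 SE, adjusted p = 0.00759 and 2.11 ± 0.49 SE, adjusted p = 0.00924. The difference of adss1.S was lost without regeneration 6 h C (adjusted p = 0.0604), that of odf3.L without regeneration 6 h D (adjusted p = 0.0583) and that of aqp3.S with all 32 libraries. The difference of mmp13l.L (4.32 ± 1.095 SE, adjusted p = 0.0262) was lost on leaving out each of refractory 6 h A, refractory 6 h D, refractory 72 h C, refractory 72 h D, regeneration 6 h A, regeneration 6 h C, regeneration 72 h A, regeneration 72 h C and regeneration 72 h D (adjusted p up to 0.235). That of ak7.S (8.07 ± 2.02 SE, adjusted p = 0.0216) was lost on leaving out each of refractory 6 h D, refractory 72 h B and regeneration 6 h A (adjusted p up to 0.0685). Both were also lost with all 32 libraries. The gene ak7.S had no count at refractory 6 h, at least 8.49-fold higher at 72 h with 6 h set to 3 counts over the group.

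**Figure D5:**
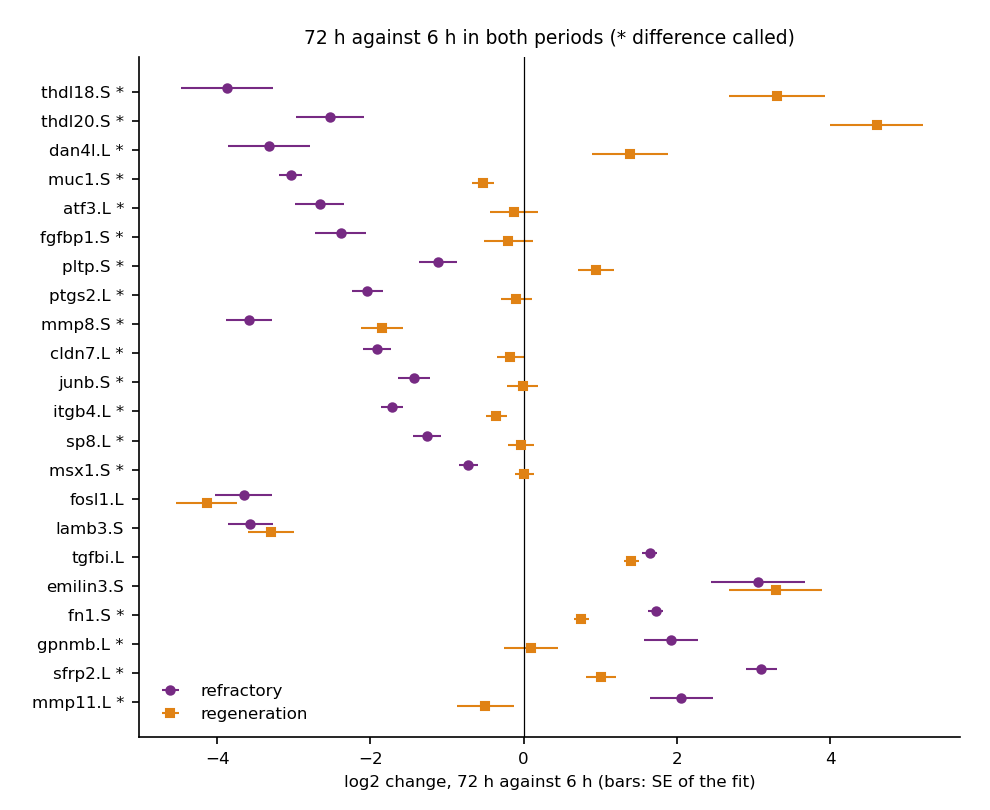
Log2 change of 72 h against 6 h with SE of the fit for 22 genes, in refractory tails (purple circles) and in regenerating tails (orange squares), where a star marks a called difference between the periods. Genes with the 2 periods on opposite sides of 0 include thdl18.S, thdl20.S, dan4l.L and pltp.S. The periods lie close together for fosl1.L, lamb3.S and tgfbi.L, and mmp11.L lies above 0 in refractory tails only.

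Xenopus laevis is allotetraploid, and .L and .S mark the copies of a gene on its 2 subgenomes. Of 5650 pairs with both copies tested, 426 had 1 or both called and 87 had both. In 86 of these the copies moved the same way, 69 lower and 17 higher. The exception was the phospholipid transfer protein gene, chosen after its values were seen, with pltp.L at 40.2, 36.1, 45.7 and 38.4 CPM at 6 h and 59.6, 93 and 59.8 CPM at 72 h (log2 change 0.82 ± 0.22 SE, adjusted p = 0.0204). Its homeolog pltp.S was at 49.1, 83.8, 61.9 and 78.9 CPM at 6 h and 28.7, 36.7 and 28.7 CPM at 72 h (log2 change -1.12 ± 0.25 SE, adjusted p = 0.00306). The call of pltp.L was lost without 6 h A, 6 h B, 6 h D or 72 h C (adjusted p up to 0.254), with all 32 libraries and with the block, and that of pltp.S in the 14 refractory libraries. Reads shared by near-identical copies could be split between them, so values of a single copy are uncertain.

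The remaining large changes rested on few counts or single libraries. The sphingomyelin synthase gene sgms2.L was at 2.14, 9.65, 2.15 and 15.64 CPM at 6 h and 0.355, 0 and 0 CPM at 72 h, a ratio of 6 h to 72 h of 68.6 (95% counting interval 12 to 2746). The sulfate transporter gene slc26a2.2.L was at 5.69, 8.64, 6.74 and 2.84 CPM at 6 h and 1.06, 0 and 0 CPM at 72 h, a ratio of 19 (95% counting interval 6.2 to 94.4). The call of sgms2.L was lost on leaving out any of 6 h B, 6 h D, 72 h B, 72 h C and 72 h D (adjusted p up to 0.178). That of slc26a2.2.L was lost on leaving out any of 6 h B, 6 h C, 72 h C and 72 h D (adjusted p up to 0.174), and in the 14 refractory libraries. The gene rasgef1a.S had a log2 change of -3.92 ± 1.01 SE, adjusted p = 0.00871 and lost its call on leaving out each of 72 h B and 72 h D (adjusted p up to 0.0656), and with all 32 libraries. Among the largest rises, angptl7.S (log2 change 3.67 ± 1.06 SE, adjusted p = 0.0252) lost its call on leaving out any of 6 h B, 6 h C, 72 h B and 72 h D (adjusted p up to 0.127). The cell cycle inhibitor gene cdkn2c.L (log2 change 3.19 ± 0.95 SE, adjusted p = 0.0342) lost it on leaving out any of 6 h B, 6 h C, 6 h D, 72 h B and 72 h C (adjusted p up to 0.205). The call of tmem119.L (log2 change 2.25 ± 0.62 SE, adjusted p = 0.0185) was lost on leaving out any of 6 h B, 6 h C and 72 h C (adjusted p up to 0.0965). The rise of ap4m1.S (log2 change 2.15 ± 0.64 SE, adjusted p = 0.0326) lost its call on leaving out any of 6 h A, 6 h C, 6 h D, 72 h B, 72 h C and 72 h D (adjusted p up to 0.135), and in the 7 libraries alone. In the 14 refractory libraries and with all 32, angptl7.S, cdkn2c.L and tmem119.L were not called, nor were angptl7.S and cdkn2c.L with the replicate block.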

How the data were processed

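The values come from deposited tables of bulk RNA sequencing of amputated tails of Xenopus laevis. Per the labels' protocols, 100 ng of total RNA per sample went into a Lexogen SENSE Total RNA-Seq library, sequenced on an Illumina NextSeq 500. The submitters' processing notes name R 4.1.0, HTSeq 0.6.1p1, DESeq2 1.32.0 and STAR 2.7.9a, with no role for each. Neither the genome build nor the annotation is given in the sources used here, and no position or sequence is reported. The deposited raw tables hold read counts per gene without normalization, and they were used for every value here. The authors' normalized tables hold a signal, the counts divided by a size factor per library, and served only to tell which libraries the authors kept. All columns were matched to samples by their titles (0 columns not used).

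Counts of the 27467 genes in both raw tables (28280 in the refractory table, 28490 in the regeneration table) were fitted in R 4.3.3 with edgeR 4.0.16: TMM scaling, filterByExpr by group, and 1 robust quasi-likelihood model (glmQLFit, glmQLFTest) of 8 groups of period and time over the 27 libraries kept, with no replicate block. With 21458 genes tested, it had 19 residual degrees of freedom, and the common biological coefficient of variation was 0.34. Contrasts were refractory 72 h against 6 h, its difference from the same contrast in the regeneration period, and companion contrasts against 0 h. P-values are two-sided, adjusted by Benjamini-Hochberg over all genes, and called under 0.05. They measure the spread between samples as labelled. SE is the absolute log2 change divided by the square root of F. A gene without counts in a group is given a bound at 3 counts over the group, and ratios with 1 to 3 counts carry a 95% counting interval, which covers counting error only.

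The libraries, gene lists and the rule for named genes were chosen with earlier results of these data known. Under the rule these were the 12 largest falls and 12 largest rises among called genes with a symbol, a mean of 5 CPM or more in a group and libraries that did not overlap, up to 4 called members of each list by adjusted p, the 6 largest differences between periods in each direction, and a fixed panel. Outside the rule, these genes were chosen after their values were seen: LOC121393057, adamts7.L, angptl2.L, angptl2.S, cdh1.S, cebpb.L, cldn4.S, clic3.S, ctsk.L, dusp5.L, egr1.L, epcam.L, fbln7.L, fos.L, fos.S, fosb.L, gpnmb.L, htra3.L, itga2.L, itga3.S, itga6.S, jun.L, jun.S, junb.S, jup.L, kera.S, klf2.S, krt19.S, krt8.1.L, lgmn.L, lmcd1.S, lox.S, mdk.L, mmp14.L, msx1.L, muc1.S, p4ha1.L, pkp3.L, plec.S, pltp.L, pltp.S, sdc1.L, sfrp2.S, tgm1.L, thbs1.S, trim29.S, val.L, vcan.L, vsig4.L and zfp36.S. Genes were put in lists by symbol, with the homeolog ending .L or .S removed. Of the 21458 tested identifiers, 21457 match a RefSeq symbol. How reads shared by homeologs were counted is not stated.

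Alternatives were fits of the 14 refractory libraries, of the 7 compared, and of all 32, DESeq2 1.42.0, DESeq2-type size factors in edgeR, no filter on low counts, the replicate letter as a block, and the omission of each library. The model was tested on simulated data.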

Additional observations from a re-analysis of the deposited data

Results flagged for a closer look

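The change from 6 h to 72 h differed between the refractory and the regeneration period, by the edgeR test of the difference, for 51 genes named in the text. Values are log2 differences, refractory minus regeneration, and a negative value stands for a change that was lower in refractory tails. In early response and inflammatory genes the difference was -2.54 for atf3.L, -1.95 for ptgs2.L, -1.46 for klf2.S, -1.42 for junb.S, -0.71 for cebpd.L and -0.68 for zfp36.S. Among epidermal junction genes and the genes described beside them it was -2.84 for lmcd1.S, -2.51 for muc1.S, -1.87 for tgm1.L, -1.74 for cldn7.L, -1.54 for clic3.S, -1.40 for cldn7.S, -1.30 for cldn4.S, -1.29 for sdc1.L, -1.20 for pkp3.L, -1.05 for trim29.S, -1.03 for cldn4.L, -0.95 for epcam.S and -0.82 for jup.L. In hemidesmosome genes it was -1.46 for plec.S, -1.36 for itgb4.L and -1.17 for itga6.S. Larval skin genes gave -7.19 for thdl18.S, -7.14 for thdl20.S and -6.24 for thdl17.L, and dan4l.L, which is not on the larval skin list, gave -4.71. Tail tip and FGF genes gave -2.19 for fgfbp1.S, -1.22 for sp8.L, -0.94 for msx1.L, -0.80 for dlx5.S and -0.73 for msx1.S. Other negative differences were -8.59 for myoz1.L, -4.99 for snx31.L, -3.31 for kera.S, -2.07 for pltp.S, -1.73 for mmp8.S and -0.85 for pdk4.L. The positive differences of protease genes were 4.32 for mmp13l.L and 2.56 for mmp11.L, and that of the matrix gene fn1.S was 0.97. For the Wnt modulator gene sfrp2.L it was 2.09, and for the keratin gene krt8.1.L it was 1.09. The remaining positive ones were 8.07 for ak7.S, 2.54 for adss1.S, 2.50 for aqp3.S, 2.11 for odf3.L, 1.83 for gpnmb.L, 1.69 for val.L, 1.14 for LOC121393057, 0.56 for aldoa.L and 1.73 for krt12.4.S. With all 32 libraries the differences of mmp8.S, sfrp2.L, mmp11.L, fn1.S, epcam.S, cldn7.S, msx1.S, pdk4.L, aldoa.L, ak7.S, mmp13l.L, aqp3.S, gpnmb.L, junb.S, trim29.S, itga6.S, klf2.S, jup.L, krt12.4.S, val.L, krt8.1.L and LOC121393057 were not called. That of pdk4.L was not called by DESeq2, and that of gpnmb.L not with the replicate block. Over the 14 omissions of a library, pdk4.L lost the call of its difference in 12. The call was lost in 10 for mmp8.S, cldn4.S and gpnmb.L, in 9 for mmp13l.L, in 8 for klf2.S and in 7 for snx31.L. For epcam.S and jup.L this happened in 5, for aldoa.L in 4, and for each other gene listed here in at most 3. Of the 61 called differences of all named genes, 33 kept their call in every omission of a library, and 19 in every omission and alternative.

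Single libraries stood apart from the other 3 of their group in 17 of 279 combinations of a gene and a group examined, by a gap that took up most of the range of the group. For normally distributed values such a gap comes in about 1 in 20 groups, a rate that was not computed for these CPM. Where the other 3 libraries have no count, as in egr3.S, not.L, fosl1.L and sgms2.L at 0 h, any count gives such a gap. The genes named in the text were examined at 0 h and 6 h. At 6 h library A was low for c1qb.L (0.356 CPM) and tgm1.L (46.6 CPM), library B was high for mmp8.L (191 CPM), and library D was low for angptl2.L (168 CPM). At 0 h library D was high for col5a2.L (78.1 CPM), mmp11.L (19.1 CPM), not.L (1.39 CPM), fosl1.L (0.694 CPM) and sgms2.L (2.08 CPM), and low for tpx2.S (62.8 CPM). At 0 h library C was high for egr3.S (1.47 CPM) and plec.S (183 CPM) and low for emilin3.S (1.47 CPM) and msx1.L (56.3 CPM). Also at 0 h, library B was high for mmp9.2.S (0.668 CPM) and low for itga2.L (0.334 CPM), and library A was low for krt19.S (31.8 CPM). The 0 h values do not enter the comparison of 72 h with 6 h.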

How the results depend on the processing

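No call of a named gene changed direction in the fits run. Genes not called did in 4 cases: with all 32 libraries aqp3.S was at -0.002, mmp1.L at 0.33 and krt12.4.S at 0.016 on the log2 scale, and without 72 h C aqp3.S was at -0.12 (up to 0.90 over the omissions). The 836 calls of 72 h against 6 h were 690 in the 14 refractory libraries, 848 in the 7 libraries compared, 986 with DESeq2, 845 with DESeq2-type size factors, 922 without a filter on low counts and 479 with all 32 libraries, where 393 were lower and 86 higher. Leaving out each of the 7 libraries gave 533 to 861 calls, 359 to 638 lower and 147 to 223 higher. The replicate block gave 1006 calls. Over genes with a mean of 5 CPM or more, refractory 6 h and 72 h samples of 1 letter did not deviate together (correlations of -0.026, -0.004 and 0.012 for B, C and D). The letters were not taken as pairs, and an effect of the letter in some genes only was not tested. The 177 differences between periods were 123 with all 32 libraries, 229 with DESeq2, 234 with the replicate block and 260 without a filter, and 124 to 202 when each of 14 libraries was left out. The share of wound genes that fell was 37.3% to 51.2% over the omissions and 46.8% to 53.8% over the alternatives. Of 169 named genes called, 107 kept their call in every omission and 85 in every omission and alternative. The total counts per library limit genes of a few counts, whose folds are given as bounds or with intervals. The fit of all 32 libraries adds 5 libraries at once, 72 h A among them, and which of them moved the results was not tested.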
